A study of Mus musculus with 3 samples.

Results

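Galectins are sugar-binding proteins, and 5 of their genes, Lgals1, Lgals3, Lgals7, Lgals8 and Lgals9, were followed here among the 31053 genes counted in sorted tumour T cells. The genes were taken by symbol, and the choice was made with earlier results of these data known. The cells came from subcutaneous MC38-Ova tumours and B16-Ova tumours, a colon carcinoma line and a melanoma line that both carry ovalbumin, in C57BL/6 mice. They were taken on day 14, sorted as TCRβ+ CD3+ CD90.2+ CD11b- cells, told apart by hashtag and loaded in 1 droplet capture that read RNA together with oligonucleotide tags. The labels name no genetic change or drug for either group, and do not give the number of mice behind a hashtag. Each tumour is therefore 1 pool of cells without a replicate, and no capture lacking the lectin described next was analysed.

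Galectins are made without a signal peptide and leave the cell by an unusual route, so the same protein can act in the cytosol and on the cell surface. Outside the cell they bind galactose-ending chains of glycoproteins, and N-glycans with a β1,6 branch, which the enzyme Mgat5 starts, carry many such chains. The plant lectin L-Pha binds the same branched glycans, and in this assay a biotin tag counted how much L-Pha each cell held. Galectin-1 and galectin-7 are prototype galectins with one kind of sugar-binding domain per chain, galectin-3 is the chimera type that can form oligomers, and galectin-8 and galectin-9 join a pair of unlike sugar-binding domains in one chain. In T cells, galectin-1 and galectin-9 are known for dampening responses from outside, and galectin-3 for cross-linking surface glycoproteins.

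The tag that carries the glycan reading and the hashtags that give the tumour are oligonucleotides of 15 bases, shown because every comparison with L-Pha binding or between tumours rests on counting them. They are designed barcodes of no genome, written in lower case throughout:
Biotin tag (L-Pha): cggtatatcaacaga
hashtag 2 (MC38-Ova): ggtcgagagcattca
hashtag 1 (B16-Ova): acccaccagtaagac

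All 19912 barcodes held RNA and tag UMIs (molecules counted once each by their molecular identifier), 18429 passed the cell filter, and 14992 carried 1 hashtag clearly, 8407 from MC38-Ova and 6585 from B16-Ova. From raw UMIs of Cd8a, Cd8b1, Cd4, Foxp3, Cd3e, Fcer1g and Tyrobp, 960 MC38-Ova and 777 B16-Ova cells were classed as Treg, 2544 and 1792 as CD8, 780 and 455 as innate-like, and 736 and 753 as CD4 without Foxp3. The other 6195 cells met no class rule and were left out of class comparisons. Median depth per class ran between 4107 and 7358 RNA UMIs per cell. All 7 T cell markers were detected in every class, with summed levels between 3999 and 5898 CPM (UMIs of a gene scaled to a common total of RNA UMIs). Macrophage markers summed to between 53.5 and 256 CPM and stromal markers to between 6.61 and 333 CPM, so some barcodes held RNA typical of other cells. Melanoma markers summed to between 43.5 and 497 CPM in the B16-Ova classes and were not confined to that pool, reaching 250 CPM in MC38-Ova Treg cells.

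Between the 4 classes, Lgals1 and Lgals3 were lowest in innate-like cells, Lgals7 was high in CD4 and Treg cells, and Lgals8 and Lgals9 were not separated between classes. CPM values are not divided by transcript length, so levels are compared within a gene and not between genes.

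**Figure D1:**
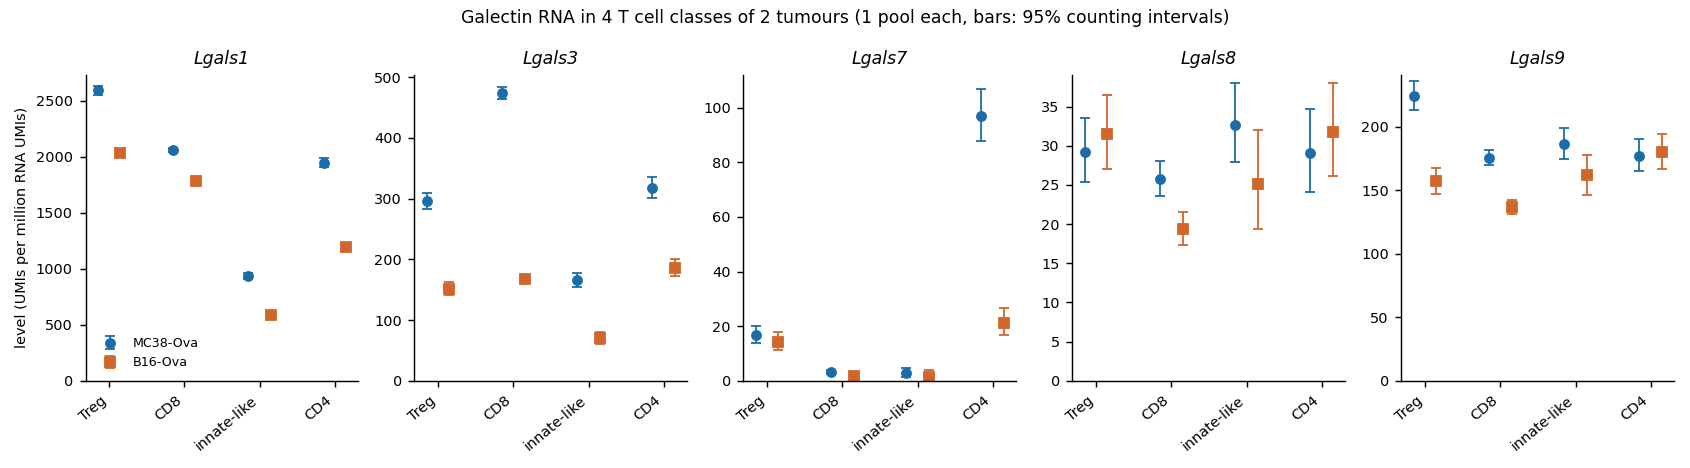
Level of each galectin RNA in CPM (y axis, from 0, a different scale per panel) in Treg, CD8, innate-like and CD4 cells of the MC38-Ova pool (blue circles) and the B16-Ova pool (orange squares), with exact Poisson 95% intervals that cover counting error only. Lgals1 and Lgals3 are lowest in innate-like cells of each pool, Lgals7 stands out in MC38-Ova CD4 cells at 96.9 CPM, and Lgals8 lies between 19.3 and 32.7 CPM everywhere.

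Lgals1 lies on chromosome 15 (78926725 to 78930465, plus strand, GRCm38) and encodes galectin-1. Its level was 2594 CPM in MC38-Ova and 2037 CPM in B16-Ova Treg cells, 2059 and 1782 CPM in CD8 cells, 938 and 584 CPM in innate-like cells, and 1948 and 1194 CPM in CD4 cells. The order Treg, CD8, CD4, innate-like was the same in both pools, and innate-like cells of each pool lay below every other class of either pool. Between 82.6% and 93.2% of the cells of each class and pool had at least 1 Lgals1 UMI, and no class lacked the gene, so the share that free RNA alone would give is not known. After thinning each cell to 2000 UMIs the shares were 88.6% and 87.3% in Treg cells, 81.8% and 76.6% in CD8 cells, 63.3% and 56.3% in innate-like cells, and 79.0% and 75.3% in CD4 cells.

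Lgals1 fell in innate-like cells relative to all 3 other classes. The log2 fold change was -1.49 ± 0.13 (SE) against Treg cells (2.82-fold lower, edgeR quasi-likelihood adjusted p = 0.000256). Against CD8 cells it was -1.37 ± 0.13 (2.58-fold lower, edgeR adjusted p = 0.00172), and against CD4 cells -0.92 ± 0.13 (1.89-fold lower, edgeR adjusted p = 0.00458). Each test compared sums of UMIs over the cells of a class and pool, 8 sums in all, with the pool as a block and 3 residual degrees of freedom. The direction was that of both pools in each case. At the upper end of the order the neighbours were not separated: Treg over CD8 was 0.13 ± 0.13 (edgeR adjusted p = 0.541), CD8 over CD4 0.45 ± 0.13 (edgeR adjusted p = 0.0775), and Treg over CD4 0.58 ± 0.13 (edgeR adjusted p = 0.0552). The last of these passed the threshold with DESeq2 (0.59, DESeq2 adjusted p = 0.00378) and when cells with other-cell markers were left out (0.66, edgeR adjusted p = 0.00357).

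Lgals7, on chromosome 7 (28863853 to 28866284, plus strand, GRCm38), encodes galectin-7, a protein best known from stratified epithelia such as skin. It was the galectin with the widest relative range. In Treg cells it stood at 16.6 CPM in MC38-Ova and 14.3 CPM in B16-Ova. CD8 cells had 3.25 and 1.80 CPM, and innate-like cells 2.75 and 1.54 CPM, which are only 14 and 4 UMIs. CD4 cells had 96.9 and 21.2 CPM. Treg and CD4 cells lay above CD8 and innate-like cells in both pools, and the 2 CD4 values differed more than those of any other class.

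Lgals7 passed the filter on low counts through its Treg and CD4 sums. CD8 cells held only 68 UMIs of it in MC38-Ova and 31 in B16-Ova, and the filter left the gene out of later fits within CD8 or innate-like cells. Although edgeR called Lgals7 in all 4 contrasts of Treg or CD4 cells with CD8 or innate-like cells, no fold change is drawn from them, and the levels above stand as a description. Treg against CD4 gave a log2 fold change of -1.72 ± 0.39 (edgeR adjusted p = 0.0609), with -2.55 in the MC38-Ova pool alone and -0.57 in the B16-Ova pool alone. It passed with DESeq2 (-1.64, DESeq2 adjusted p = 0.0167) and without cells that carried other-cell markers (-1.82, edgeR adjusted p = 0.0179).

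Lgals3, on chromosome 14 (47367751 to 47386160, plus strand, GRCm38), encodes galectin-3. Its level was 295 CPM in MC38-Ova and 152 CPM in B16-Ova Treg cells, 474 and 168 CPM in CD8 cells, 166 and 69.8 CPM in innate-like cells, and 317 and 186 CPM in CD4 cells. CD8 cells led in MC38-Ova and CD4 cells led in B16-Ova, while innate-like cells were lowest in each pool. The MC38-Ova values of Treg, CD8 and CD4 cells lay above all 4 B16-Ova values, and that of innate-like cells did not.

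Lgals3 fell in innate-like cells relative to CD8 cells, with a log2 fold change of -1.38 ± 0.16 (2.61-fold lower, edgeR adjusted p = 0.00409), relative to CD4 cells, with -1.04 ± 0.17 (2.06-fold lower, edgeR adjusted p = 0.00802) and relative to Treg cells, with -0.83 ± 0.17 (1.78-fold lower, edgeR adjusted p = 0.0112). The remaining classes were not separated, with Treg over CD8 at -0.55 ± 0.16 (edgeR adjusted p = 0.0503), CD8 over CD4 at 0.34 ± 0.16 (edgeR adjusted p = 0.225) and Treg over CD4 at -0.21 ± 0.16 (edgeR adjusted p = 0.541). Macrophages are rich in this gene, and the 9 MC38-Ova barcodes with at least 10 C1q UMIs and no Cd3e UMI had 2268 CPM of Lgals3. Without cells that held a UMI of a macrophage, melanoma, collagen or B cell marker, Treg over CD8 was -0.91 (edgeR adjusted p = 0.00238) and Treg over CD4 -0.67 (edgeR adjusted p = 0.0349), so both passed.

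The tandem-repeat galectins showed no such order. Lgals9, on chromosome 11 (78962974 to 78984946, minus strand, GRCm38), encodes galectin-9, a proposed ligand of the checkpoint receptor Tim-3. It had 224 CPM in MC38-Ova and 157 CPM in B16-Ova Treg cells, 175 and 137 CPM in CD8 cells, 186 and 162 CPM in innate-like cells, and 177 and 180 CPM in CD4 cells. Treg cells led in MC38-Ova and CD4 cells in B16-Ova, and CD8 cells were lowest in both. Lgals8, on chromosome 13 (12439415 to 12464944, minus strand, GRCm38), encodes galectin-8, which marks damaged vesicles for autophagy. It had 29.2 and 31.5 CPM in Treg cells, 25.7 and 19.3 CPM in CD8 cells, 32.7 and 25.1 CPM in innate-like cells, and 29.1 and 31.7 CPM in CD4 cells. Neither gene passed the test in any of the 6 class contrasts, in which their log2 fold changes lay between -0.32 and 0.38, with standard errors between 0.13 and 0.19.

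All 5 genes passed the filter on low counts for these contrasts. In Treg against CD4 cells 0 of the 5 were called by edgeR, while 3.35% of the 11188 genes tested were called, 1.98% higher and 1.37% lower. DESeq2 called 460 genes there, among them 2 galectins, and 2031 genes had an unadjusted edgeR p under 0.05. In CD8 against CD4 cells 1 galectin was called, lower, beside 6.88% of all genes (3.30% higher, 3.58% lower). In Treg against CD8 cells 1 was called, higher, beside 15.5% of all genes (8.41% higher, 7.04% lower). With innate-like cells in the contrast, 3 galectins were called against CD4 cells beside 9.47% of all genes (4.35% higher, 5.12% lower), 2 against CD8 cells beside 8.13% (3.85% higher, 4.28% lower), and 3 against Treg cells beside 21.0% (9.81% higher, 11.2% lower). Every call with innate-like cells was lower in innate-like cells. Lgals7 made the single call of CD8 against CD4 and of Treg against CD8 cells, and 1 of the 3 in innate-like against CD4 and against Treg cells, so those calls carry the limit given above. No median over the 5 genes is read for these contrasts, since Lgals7 is among them. In innate-like against CD8 cells the median of -0.27 was the Lgals7 value itself.

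Other sugar-binding genes of the family gave little RNA in the cells of the 4 classes. There Lgals2 had 0 UMIs in MC38-Ova and 3 in B16-Ova, Lgals12 had none in either pool, and Lgals4 had 63 and 34. Cells that met no class rule were not counted for these genes. Lgals2 and Lgals12 did not exceed the 3 UMIs per pool that a count of 0 allows. Of the annexin and S100 genes, which like galectins include secreted proteins without a signal peptide and calcium-binding partners, 8 of 12 tested fell in innate-like relative to Treg cells and 0 rose, beside 11.2% and 9.81% of all genes. The log2 fold change was -1.40 ± 0.09 for S100a10 (edgeR adjusted p = 6.66e-05) and -1.91 ± 0.17 for S100a4 (edgeR adjusted p = 0.000311). Against CD4 cells 4 of these 12 fell in innate-like cells, beside 5.12% of all genes, and 1 rose, beside 4.35%: Anxa2, by 0.51 ± 0.10 (edgeR adjusted p = 0.0167).

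Among 20 genes for proteins that galectins are reported to bind, 9 fell and 3 rose in innate-like relative to Treg cells, beside the same 11.2% and 9.81% of all genes. The log2 fold change was -3.75 ± 0.15 for Ctla4 (edgeR adjusted p = 3.70e-05), -2.77 ± 0.20 for Lag3 (0.000132), -2.64 ± 0.21 for Tnfrsf9 (0.000193) and -1.15 ± 0.10 for Cd2 (0.000226). Ctla4 and Lag3 are inhibitory receptors, Tnfrsf9 is the costimulatory receptor 4-1BB, and Cd2 is an adhesion receptor. Of the glycan enzymes tested, 19 of a list of 20, 5 rose and 5 fell in the same contrast, with the same shares over all genes. Those that rose included St3gal6, a sialyltransferase, by 2.00 ± 0.19 (edgeR adjusted p = 0.000352), Mgat4a, another branching enzyme, by 1.63 ± 0.19 (0.000932), Mgat5 by 1.36 ± 0.17 (0.00140) and B4galt1, a galactosyltransferase, by 0.75 ± 0.13 (0.00514).

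The next question was whether galectin RNA went with L-Pha binding inside a class. Within each class and pool, cells were ranked by their L-Pha UMIs and cut into quartiles, and the highest quartile was compared with the lowest. Of the 5 galectins, Lgals1 was called most often: it was higher in L-Pha-high Treg and CD4 cells, and Lgals3 was higher in L-Pha-high innate-like cells. These calls depended on RNA depth or on the cells kept. Both Lgals1 calls were lost when quartiles were formed within deciles of RNA content. With L-Pha expressed relative to RNA content, the sign of Lgals1 turned round in every class. The Lgals3 call was lost without cells that held other-cell markers.

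**Figure D2:**
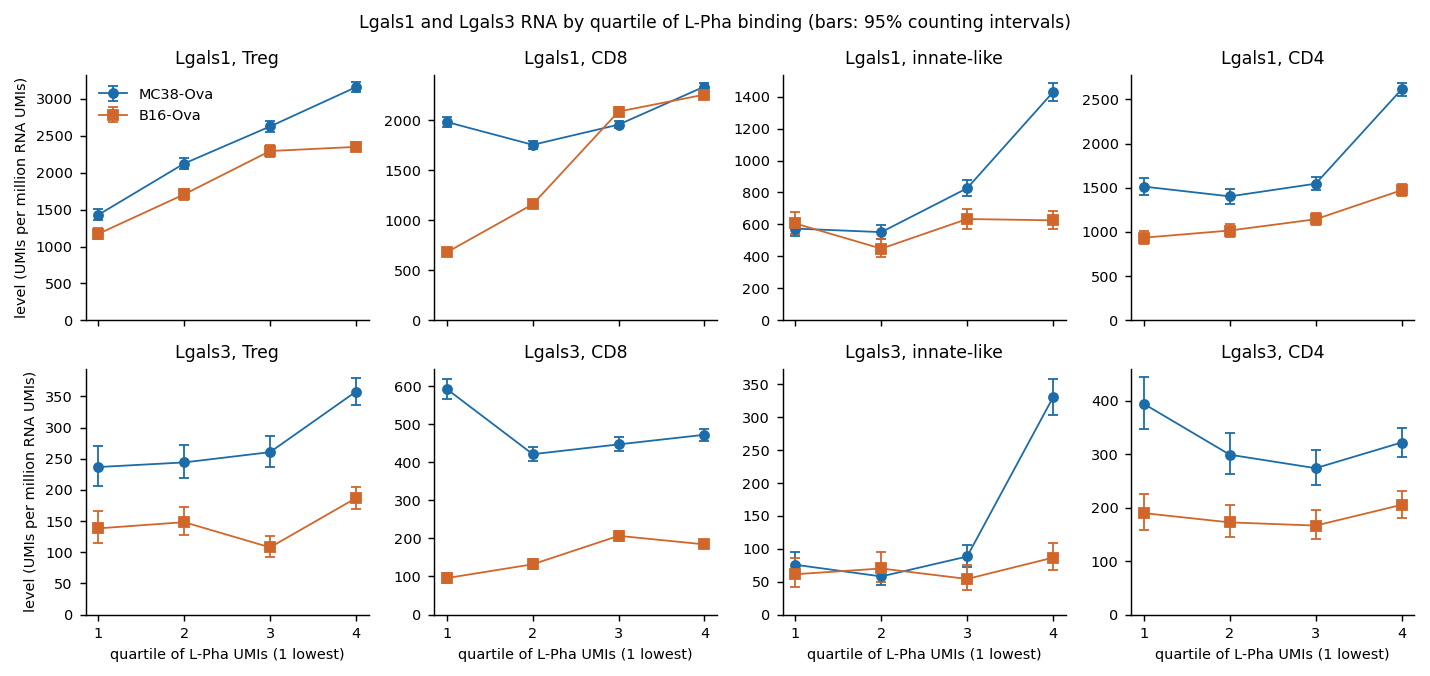
Level of Lgals1 (upper row) and Lgals3 (lower row) in CPM (y axes from 0, own scale per panel) over quartiles of L-Pha UMIs per cell, lowest to highest, in each class, for MC38-Ova (blue circles) and B16-Ova (orange squares) with exact Poisson 95% intervals. In Treg cells Lgals1 climbs through all 4 quartiles of both pools, in CD8 cells the climb is seen in B16-Ova, where it spans 681 to 2258 CPM, and the Lgals3 step in innate-like cells is at the highest MC38-Ova quartile, 330 CPM.

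In Treg cells, the quartiles from lowest to highest L-Pha had 1430, 2125, 2627 and 3160 CPM of Lgals1 in MC38-Ova, and 1172, 1707, 2295 and 2351 CPM in B16-Ova. Each step was upward in both pools. Lgals1 rose by 1.07 ± 0.08 on the log2 scale in L-Pha-high against L-Pha-low Treg cells (2.10-fold, edgeR adjusted p = 0.0134), with 1.16 in MC38-Ova alone and 1.03 in B16-Ova alone. It was the only galectin of 5 called there, where 2.06% of 8652 genes were called (1.02% higher, 1.04% lower). L-Pha-high Treg cells were also deeper, with medians of 9077 RNA UMIs in MC38-Ova and 10240 in B16-Ova, against 3413 and 4008 in L-Pha-low cells.

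Markers of other cells moved with the Treg result too. In L-Pha-high Treg cells of MC38-Ova stromal markers summed to 743 CPM, melanoma markers to 536 CPM and dendritic cell markers to 1024 CPM, against 11.8, 39.8 and 190 CPM in L-Pha-low cells. In B16-Ova the sums were 4.81, 26.7 and 1074 CPM in L-Pha-high cells, against 4.85, 53.4 and 224 CPM. Of 10 macrophage genes 5 passed the filter on low counts, and 4 of these 5 were called higher in L-Pha-high Treg cells. Of 8 dendritic cell genes 3 passed and all 3 were called higher, beside 1.02% of all genes. A gene scarce in L-Pha-low cells could pass the filter through its L-Pha-high sums, so these counts stand as a description. Without cells that held a UMI of a macrophage, melanoma, collagen or B cell marker, Lgals1 had 2941 CPM in L-Pha-high and 1409 CPM in L-Pha-low MC38-Ova Treg cells (ratio 2.09, 1.95 to 2.23), and 2334 and 1167 CPM in B16-Ova cells (ratio 2.00, 1.85 to 2.16). Dendritic cell markers were not among those used to leave cells out, and their part in the result was not tested.

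When quartiles were formed within deciles of RNA content, the difference in Treg cells was 0.46 (edgeR adjusted p = 0.200), with 3165 CPM in L-Pha-high and 2076 CPM in L-Pha-low cells of MC38-Ova, and 2119 and 1611 CPM in those of B16-Ova. The order held in each pool at matched depth, but the call did not. With L-Pha expressed per 1000 RNA UMIs it turned round, to -0.50 (edgeR adjusted p = 0.0139). Across Treg cells of at least 2000 UMIs, Lgals1 UMIs after thinning every cell to that depth had a Spearman rho with L-Pha UMIs of 0.32 in MC38-Ova (850 cells) and 0.31 in B16-Ova (677 cells). With the RNA content of the cell the rho was 0.37 and 0.33, so thinned Lgals1 tracked both measures, and the points of a pool share 1 library.

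In CD4 cells Lgals1 had 1513, 1402, 1546 and 2612 CPM in MC38-Ova from lowest to highest L-Pha, and 935, 1016, 1144 and 1472 CPM in B16-Ova. The rise sat in the highest quartile of MC38-Ova and was more even in B16-Ova. It was 0.74 ± 0.15 on the log2 scale (1.67-fold, edgeR adjusted p = 4.53e-05), and Lgals1 was the 1 galectin called of 5 (background 8.41% of 7566 genes, 5.02% higher and 3.38% lower). The spread in this class was borrowed wholly from other genes, so disagreement of the pools over 1 gene did not widen its error. The call was lost within RNA deciles (0.46, edgeR adjusted p = 0.620) and without cells that held other-cell markers (0.47, edgeR adjusted p = 0.0684). Macrophage markers summed to 266 CPM in MC38-Ova and 102 CPM in B16-Ova L-Pha-high CD4 cells, against 36.0 and 36.1 CPM in L-Pha-low cells, and stromal markers to 251 and 18.9 CPM, against 11.98 and 19.6 CPM. The 33 MC38-Ova barcodes with at least 10 collagen UMIs and no Cd3e UMI had 5309 CPM of Lgals1, and 3 of them met a class rule.

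In CD8 cells both pools had more Lgals1 in the highest than in the lowest L-Pha quartile, by unlike amounts. MC38-Ova CD8 cells had 1984, 1756, 1958 and 2339 CPM of Lgals1 over the L-Pha quartiles, a high-over-low ratio of 1.18 (exact conditional 95% interval 1.15 to 1.21). B16-Ova CD8 cells had 681, 1161, 2089 and 2258 CPM, a ratio of 3.32 (3.15 to 3.49). The highest quartiles of the pools lay close together, and the lowest quartiles far apart. The joint estimate was 0.85 ± 0.38 on the log2 scale and did not pass (edgeR adjusted p = 0.315). None of the 4 galectins tested was called, where 0.0195% of 10277 genes, 2 in number, were called by edgeR (0.0195% higher, 0.00% lower), 70 by DESeq2 and 1718 at an unadjusted edgeR p under 0.05. Leaving out cells with other-cell markers left the B16-Ova ratio at 3.30 (3.12 to 3.49), and matching RNA deciles gave 1.07 (1.04 to 1.10) in MC38-Ova and 1.47 (1.43 to 1.52) in B16-Ova.

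Innate-like cells differed between pools as well. MC38-Ova innate-like cells had 574, 552, 827 and 1428 CPM of Lgals1 over the L-Pha quartiles, and B16-Ova innate-like cells 606, 448, 634 and 626 CPM. Lgals3 had 75.7, 58.0, 88.3 and 330 CPM in MC38-Ova and 61.3, 70.1, 54.1 and 86.5 CPM in B16-Ova. In MC38-Ova the Lgals3 step was at the highest quartile, and Lgals1 was higher in the third quartile as well. Lgals3 rose by 1.51 ± 0.27 on the log2 scale (2.86-fold, edgeR adjusted p = 0.00198), as the 1 galectin called of 4 tested (background 2.30% of 7122 genes, 1.80% higher and 0.505% lower), and Lgals1 gave 0.69 ± 0.19 (edgeR adjusted p = 0.0673; 0.49, edgeR adjusted p = 0.0270, without the deepest 10% of cells). By pool the Lgals3 change was 2.09 in MC38-Ova and 0.45 in B16-Ova.

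The Lgals3 result in innate-like cells came together with markers of other cells. Macrophage markers summed to 480 CPM in MC38-Ova and 125 CPM in B16-Ova L-Pha-high innate-like cells, against 26.3 and 22.3 CPM in L-Pha-low cells. All 10 macrophage genes were detected in the MC38-Ova L-Pha-high cells, while 4 of 10 were at 0 in the L-Pha-low cells. Stromal markers summed to 684 and 152 CPM, against 12.1 and 7.43 CPM. Without cells that held such markers, Lgals3 had 197 CPM in L-Pha-high and 74.2 CPM in L-Pha-low MC38-Ova cells, a ratio of 2.66 (1.98 to 3.63), and 42.6 and 62.9 CPM in B16-Ova cells, a ratio of 0.68 (0.39 to 1.18). The joint difference was then 0.71 (edgeR adjusted p = 0.624), and it was 0.74 (edgeR adjusted p = 0.0884) without the deepest 10% of cells. DESeq2 gave 1.31 for all cells (DESeq2 adjusted p = 1.00).

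Lgals3 in Treg cells behaved likewise. It had 358 CPM in L-Pha-high and 237 CPM in L-Pha-low MC38-Ova cells, and 187 and 138 CPM in B16-Ova cells, for 0.52 ± 0.12 on the log2 scale (edgeR adjusted p = 0.0985). Without cells holding other-cell markers the values were 238 and 235 CPM in MC38-Ova and 89.7 and 137 CPM in B16-Ova, for -0.23 (edgeR adjusted p = 0.449). Summed macrophage markers were 105 and 540 CPM in the L-Pha-high Treg cells of MC38-Ova and B16-Ova, against 25.8 and 41.2 CPM in L-Pha-low cells. In CD8 cells Lgals3 ran in opposite directions, with 472 CPM in L-Pha-high and 592 CPM in L-Pha-low MC38-Ova cells (ratio 0.80, 0.75 to 0.84), and 184 and 95.8 CPM in B16-Ova cells (ratio 1.92, 1.67 to 2.22). In CD4 cells the Lgals3 difference was -0.08 ± 0.16 (edgeR adjusted p = 0.848).

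Lgals7 was tested in 2 of these 4 classes, since its counts were too low in CD8 and innate-like cells. In CD4 cells of MC38-Ova it had 147, 103, 118 and 62.0 CPM from lowest to highest L-Pha, and in those of B16-Ova 10.5, 15.8, 26.8 and 25.9 CPM. The pools ran in opposite directions, and the joint difference was -0.64 ± 0.25 (edgeR adjusted p = 0.0883). In Treg cells it was -0.19 ± 0.38 (edgeR adjusted p = 0.836). Lgals8 and Lgals9 were called in none of the 4 classes, with log2 differences between -0.60 and 0.43 and standard errors between 0.17 and 0.32.

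Of the lists set beside the galectins, the sialyltransferase gene St6gal1 fell in L-Pha-high Treg cells, with a log2 difference of -2.13 ± 0.28 (edgeR adjusted p = 0.0242), in innate-like cells with -1.75 ± 0.43 (edgeR adjusted p = 0.0294) and in CD4 cells with -1.29 ± 0.33 (edgeR adjusted p = 0.00352). The sialic acid that this enzyme adds to galactose is known to block binding by galectin-1. Of the glycan enzymes tested it was the only 1 called in Treg cells, of 17, and in innate-like cells, of 14. In CD4 cells 1 of 17 rose and 2 fell. None of 18 was called in CD8 cells, where 0.0195% of all genes were. Anxa2, the calcium-dependent membrane-binding protein annexin A2, rose by 0.86 ± 0.10 in L-Pha-high Treg cells (edgeR adjusted p = 0.0202), 0.66 ± 0.14 in innate-like cells (edgeR adjusted p = 0.0137) and 0.79 ± 0.16 in CD4 cells (edgeR adjusted p = 2.59e-05). Of the 12 annexin and S100 genes tested, 2 rose in L-Pha-high Treg cells (1.02% of all genes there), 3 in innate-like cells (1.80%), 4 in CD4 cells (5.02%) and 0 in CD8 cells (0.0195%), and none fell. Of the binding partners, 4 of 20 fell and none rose in L-Pha-high Treg cells, among them Cd69, Itgb1 and Itga4, where 1.04% of all genes fell. In CD4 cells 5 rose, among them Lag3 and Tnfrsf9, and 4 fell, where 5.02% of all genes rose and 3.38% fell. Lag3 had 142 CPM in L-Pha-high and 126 CPM in L-Pha-low CD4 cells of MC38-Ova, and 211 and 25.6 CPM in B16-Ova. Tnfrsf9 had 525 and 512 CPM in MC38-Ova, and 550 and 134 CPM in B16-Ova, so both rises lay mostly in B16-Ova. In CD8 cells none of the binding partners was called, and in innate-like cells 1 of 18 rose. Whether these counts differ between classes was not tested. The list results use L-Pha quartiles not matched for RNA depth, and no values at matched depth or without other-cell markers are given for them.

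Between the tumours the clearest difference was in Lgals3, which stood higher in MC38-Ova than in B16-Ova cells of every class. With 1 pool per tumour there is no replicate check, and a difference between tumours cannot be told apart from one between these pools. The intervals given are exact conditional 95% intervals of the CPM ratio and cover counting error only.

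**Figure D3:**
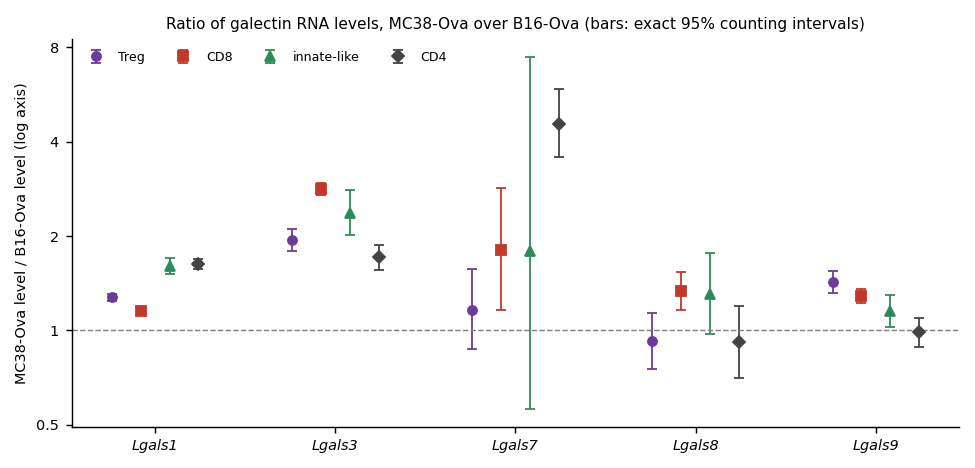
Ratio of the level in MC38-Ova cells to that in B16-Ova cells (log axis, dashed line at 1) for each galectin in Treg (violet circles), CD8 (red squares), innate-like (green triangles) and CD4 cells (black diamonds), with exact 95% intervals for counting error. All 4 Lgals3 ratios lie between 1.71 and 2.83, and the Lgals7 ratio of CD4 cells, 4.57, stands highest of all.

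Lgals3 had a MC38-Ova over B16-Ova ratio of 2.83 in CD8 cells (2.71 to 2.95), 2.38 in innate-like cells (2.02 to 2.80), 1.95 in Treg cells (1.80 to 2.11) and 1.71 in CD4 cells (1.56 to 1.88). In cells free of other-cell markers the ratios were 2.94, 2.07, 2.21 and 1.74, so the difference was as large there except in innate-like cells. Without the deepest 10% of cells the ratio in innate-like cells was 1.45 (1.19 to 1.78). The share of CD8 cells with a Lgals3 UMI was 61.4% in MC38-Ova and 43.9% in B16-Ova, at median depths of 6953 and 7358 UMIs. After thinning each cell to 2000 UMIs the shares were 42.4% and 21.1%. More cells with a UMI, at similar or lower depth, thus accompanied the higher level.

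Lgals1 was higher in MC38-Ova too, by a smaller ratio: 1.63 in CD4 cells (1.57 to 1.69), 1.60 in innate-like cells (1.51 to 1.70), 1.27 in Treg cells (1.24 to 1.30) and 1.16 in CD8 cells (1.14 to 1.17). Its size and class order depended on the cells kept. Without the deepest 10% of cells the ratios, in the same order of classes, were 1.29, 1.15, 1.21 and 1.18. Without cells that held other-cell markers they were 1.31, 1.46, 1.19 and 1.14. Lgals9 had ratios of 1.43 in Treg cells (1.31 to 1.55), 1.28 in CD8 cells (1.22 to 1.35), 1.15 in innate-like cells (1.03 to 1.30) and 0.986 in CD4 cells (0.886 to 1.10). The Lgals9 values of innate-like and CD4 cells depended on the cells kept. With a hashtag ratio of 6 the ratio was 1.11 in innate-like cells (0.970 to 1.28) and 0.848 in CD4 cells (0.747 to 0.962). The innate-like interval also took in 1 without cells that held other-cell markers (0.978 to 1.27) and without the deepest 10% of cells (0.976 to 1.27). For Lgals8 the interval lay off 1 only in CD8 cells, at 1.33 (1.16 to 1.53). Of the 5 genes, 3 had intervals off 1 in Treg cells, 5 in CD8 cells, 3 in innate-like cells and 3 in CD4 cells, and all of those lay above 1. The share of all genes with such intervals was not computed, so these counts are a description and not a trait of galectins. Intervals this narrow reflect the number of UMIs, not the spread between mice.

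Lgals7 gave the largest ratio, 4.57 in CD4 cells (3.57 to 5.90), beside 1.80 in CD8 cells (1.16 to 2.86) and an interval across 1 in Treg and innate-like cells. MC38-Ova CD4 cells held 407 Lgals7 UMIs in 99 of 736 cells, and B16-Ova CD4 cells 77 UMIs in 43 of 753. The shares were 13.5% (exact 11.1 to 16.1) and 5.71% (4.16 to 7.62), at median depths of 4528 and 4107 UMIs, beside 1.77% and 1.56% of the deeper CD8 cells. A few cells carried most of it: 25 MC38-Ova CD4 cells with at least 5 UMIs held 270 of the 407, or 66.3%, and the highest held 31. In B16-Ova CD4 cells 2 cells reached 5 UMIs and held 18 of 77.

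CD4 cells with any Lgals7 UMI were then set against type 2 cytokine transcripts, a comparison made after the values were seen. Of MC38-Ova CD4 cells with a UMI of Il13 or Il5, the cytokines of type 2 helper cells, 26 of 45 had Lgals7 (57.8%, 42.2 to 72.3), against 73 of 691 (10.6%, 8.37 to 13.1) without. Cells with the cytokines were deeper, with a median of 7242 UMIs against 4406, and after thinning to 2000 UMIs the shares were 31.7% (18.1 to 48.1) and 6.64% (4.79 to 8.94). As a level, Lgals7 was 492 CPM in those 45 cells, which held 188 of its UMIs, while the 691 cells without the cytokines held 219. The gene was not confined to cytokine-bearing cells. The 308 MC38-Ova CD4 cells with a UMI of Ramp3, a receptor-modifying gene, held 294 Lgals7 UMIs, at 151 CPM, and may overlap the 45. In B16-Ova only 12 CD4 cells had these cytokines and 2 of them had Lgals7, against 41 of 741 (5.53%), too few to compare. Of the 43 B16-Ova CD4 cells with Lgals7, 1 held at least 10 melanoma-marker UMIs, and it had 1 Lgals7 UMI. No such cell was among the 99 of MC38-Ova.

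**Figure D4:**
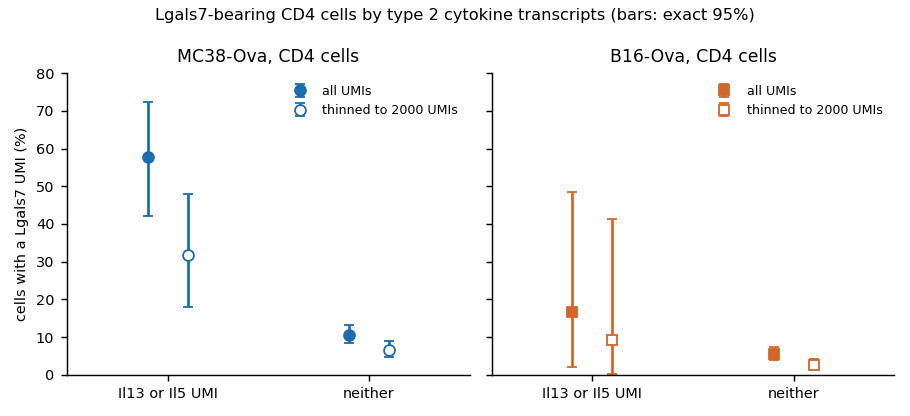
Share of CD4 cells with at least 1 Lgals7 UMI (y axis, percent) among cells with and without a UMI of Il13 or Il5, in MC38-Ova (left, blue) and B16-Ova (right, orange), from all UMIs (filled) and after thinning each cell to 2000 UMIs (open), with exact 95% intervals. In MC38-Ova the intervals of the cytokine-bearing and other cells do not overlap in either form (57.8% and 10.6% from all UMIs), and in B16-Ova the 12 cytokine-bearing cells leave an interval of 2.09% to 48.4%.

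Lgals1 also varied with the PD-1 and Tim-3 tag counts of CD8 cells. In CD8 cells of the highest PD-1 tag quartile it had 2269 CPM in MC38-Ova and 2282 CPM in B16-Ova, against 1461 and 910 CPM in the lowest, ratios of 1.55 (1.51 to 1.60) and 2.51 (2.41 to 2.61). For the Tim-3 tag the ratios were 1.72 (1.67 to 1.77) and 1.88 (1.81 to 1.94). Lgals3 in CD8 cells gave 1.61 (1.51 to 1.71) and 1.67 (1.48 to 1.89) for PD-1, and 1.70 (1.59 to 1.80) and 1.59 (1.42 to 1.78) for Tim-3. These median tag counts were low, between 14 and 21 UMIs per cell over the 4 classes, so the quartiles separate cells less sharply than those of L-Pha. Over the 20 pairs of class and gene, 5 lay above 1 in both pools for PD-1 and 5 for Tim-3, all of them Lgals1 or Lgals3, and none lay below 1 in both. No share over all genes was computed beside these counts, so they stand as a description. With tag quartiles formed within RNA deciles, 4 pairs lay above 1 in both pools for each tag. Thinned Lgals1 in CD8 cells also had a Spearman rho with RNA content of 0.23 in MC38-Ova and 0.39 in B16-Ova.

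In CD8 and Treg cells Lgals9 was not higher where the tag of its proposed receptor was. In CD8 cells with high and low Tim-3 tag it had 169 and 179 CPM in MC38-Ova, a ratio of 0.94 (0.86 to 1.03), and 127 and 158 CPM in B16-Ova, a ratio of 0.80 (0.72 to 0.90). Treg cells gave 0.91 (0.79 to 1.04) and 0.84 (0.70 to 1.01). None of these values lay above 1. In CD4 cells the ratio was 1.26 (1.03 to 1.55) in MC38-Ova and 1.02 (0.81 to 1.27) in B16-Ova.

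Cycling cells, those with at least 2 UMIs of Mki67 and Top2a together, had more Lgals1 than cells with none in every class and pool. In Treg cells it was 3591 CPM in MC38-Ova and 2464 CPM in B16-Ova cycling cells, against 2091 and 1709 CPM. The ratios were 1.72 and 1.44 in Treg cells, 1.56 and 1.73 in CD8 cells, 2.38 and 1.28 in innate-like cells, and 2.56 and 1.20 in CD4 cells. Cycling and other cells were not matched for RNA depth, and the B16-Ova innate-like ratios rest on few cycling cells. Lgals3 was higher in cycling innate-like cells, with ratios of 1.45 (1.20 to 1.73) and 2.28 (1.55 to 3.30), where both intervals lay above 1. In no other class did the intervals of both pools lie on the same side of 1. The ratios there were 1.01 (0.91 to 1.13) and 1.31 (1.13 to 1.52) in Treg cells, 1.01 (0.96 to 1.06) and 0.84 (0.77 to 0.92) in CD8 cells, and 0.70 (0.59 to 0.82) and 0.97 (0.78 to 1.21) in CD4 cells. Lgals8 was lower in cycling CD8 cells of both pools, at 0.76 (0.60 to 0.95) and 0.64 (0.50 to 0.83). Over the 20 pairs of class and gene 6 had intervals on the same side of 1 in both pools, and without the 10% deepest cells 2 had one. The share over all genes was not computed here either.

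Subsets drawn by other transcripts, chosen after values were seen, place these levels further. Treg cells with a Klrg1 UMI, a receptor of effector Treg cells, had 2985 CPM of Lgals1 in MC38-Ova and 2316 CPM in B16-Ova, against 1639 and 1495 CPM in Treg cells with neither Klrg1 nor Gzmb. The median depth was 7083 and 7280 RNA UMIs in Treg cells with Klrg1, against 3831.5 and 4110 in those with neither. CD8 cells with at least 2 UMIs of the granzyme genes Gzmf and Gzmc had 2886 and 2768 CPM, against 1326 and 1163 CPM in those with the lymph-node homing receptor Ccr7, at median depths of 12341 and 16318 RNA UMIs, against 7581.5 and 7236. The part of depth in these differences was not tested. CD8 cells with at least 2 Gzma UMIs had 757 and 241 CPM of Lgals3, against 297 and 125 CPM in those with Ccr7. In innate-like cells with at least 2 UMIs of Tmem176a and Tmem176b, genes often found in type 17 cells, Lgals3 had 529 CPM in MC38-Ova (29 cells) and 88.3 CPM in B16-Ova (23 cells), and in innate-like cells with at least 2 Ly49 receptor UMIs 129 and 65.5 CPM. The B16-Ova intervals of these subsets overlapped, at 55.3 to 134 CPM and 53.7 to 79.1 CPM. Innate-like cells with no Ly49 UMI had 316 CPM in MC38-Ova and 110 CPM in B16-Ova.

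The genes most like each galectin were sought over 32 sums of class, pool and L-Pha quartile, among 5389 genes with a mean of at least 20 CPM. Pearson correlations of log2(CPM + 5) are given as descriptions, since sums of a pool share a capture and their depth. Lgals1 was closest to the protease gene Adam8 (0.94), the mitochondrial lipid-transfer gene Prelid1 (0.93), the translocon gene Sec61g (0.93), the S100 gene S100a11 (0.93) and the secretory-pathway cyclophilin gene Ppib (0.93). Lgals3 was closest to the glycolysis gene Gpi1 (0.84), Ier3ip1 (0.83), Ankrd37 (0.83), Adam8 (0.81) and Prelid1 (0.80), and it correlated with Lgals1 at 0.79. Lgals7 was closest to the protease gene Furin (0.86), Cd4 (0.85), Paxbp1 (0.85), the receptor-modifying gene Ramp3 (0.84) and the cytokine gene Tnfsf11 (0.84). Cd4 is part of the class rule, so its likeness there reflects how classes were drawn. Lgals8 had no close companion, the nearest being Trim26 at 0.63.

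Lgals9 stood apart in its companions, which were Bst2 (0.80), Oas1a (0.74), Xaf1 (0.72), Rtp4 (0.71) and Zbp1 (0.71), all known as interferon-induced genes. Following this, cells were divided by UMIs of Ifit1 and Ifit3, a further pair of interferon-induced genes. Lgals9 had 316 CPM in MC38-Ova and 283 CPM in B16-Ova Treg cells with at least 2 such UMIs, against 173 and 139 CPM in those with none. In CD8 cells it had 270 and 256 CPM, against 137 and 121 CPM. Innate-like cells had 303 and 295 CPM, against 146 and 148 CPM, and CD4 cells 263 and 311 CPM, against 126 and 153 CPM. Cells with the interferon-induced transcripts thus had more Lgals9 in all 4 classes of both pools, and their intervals did not overlap those of cells without. Lgals1 had no common direction: B16-Ova Treg cells with these transcripts had 1712 CPM, against 2106 CPM without, and MC38-Ova CD4 cells 2654 CPM, against 1691 CPM.

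**Figure D5:**
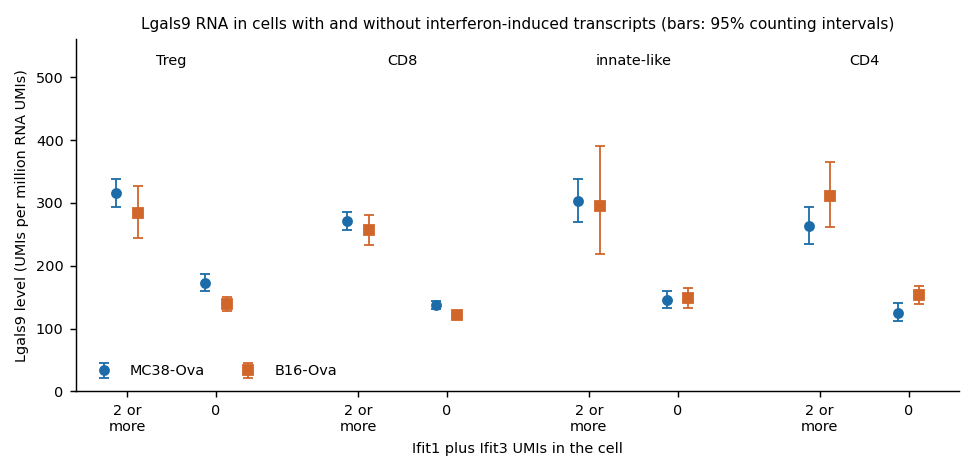
Level of Lgals9 in CPM (y axis, from 0) in cells with at least 2 UMIs of Ifit1 and Ifit3 together and in cells with none, by class, for MC38-Ova (blue circles) and B16-Ova (orange squares) with exact Poisson 95% intervals. Cells with the interferon-induced transcripts lie between 256 and 316 CPM and cells without them between 121 and 173 CPM.

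MC38-Ova cells more often had these transcripts: 248 of 960 Treg cells and 562 of 2544 CD8 cells held at least 2 UMIs, against 69 of 777 and 159 of 1792 in B16-Ova. Within cells that had them, Lgals9 in CD8 cells was 270 CPM (257 to 285) in MC38-Ova and 256 CPM (234 to 281) in B16-Ova, and within cells that had none 137 CPM (130 to 144) and 121 CPM (115 to 127). Treg cells with none had 173 CPM (159 to 188) in MC38-Ova and 139 CPM (129 to 151) in B16-Ova. Innate-like cells with none had 146 CPM (133 to 160) and 148 CPM (132 to 165). CD4 cells with none ran the other way, with 126 CPM (112 to 141) in MC38-Ova and 153 CPM (139 to 168) in B16-Ova. The part of these transcripts in the difference between pools was not tested.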

How the data were processed

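Per the labels, the RNA, antibody-tag and hashtag libraries came from 1 droplet capture with the 10x Genomics 5′ kit. The authors used Cell Ranger 3.1.0 with mm10, R 3.6.1 and Seurat 3.1.0, per the submitters' processing notes, and software 3.0.2 wrote the matrix, per the file headers. The deposited values are raw UMI counts per gene or tag and barcode, and the annotation release is not given in the sources used here. Gene positions are those of GENCODE for GRCm38, matched by gene ID. Receptor sequences of the T cells were not used here. The table held 169579110 RNA UMIs, with 500 to 111658 and a median of 5942.5 per barcode.

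Cells were kept from 500 genes upward and up to 10% mitochondrial UMIs. The larger hashtag had to reach 150 UMIs and 3 times the other, which also dropped doublets between pools, and no doublet caller was run, so doublets within a pool remain. CD8 cells had at least 2 UMIs of Cd8a and Cd8b1 and none of Cd4 or Foxp3, Treg cells a Foxp3 UMI and no Cd8, and CD4 cells a Cd4 UMI and neither. Innate-like cells had a Cd3e UMI, at least 2 of Fcer1g and Tyrobp, no Cd4 or Foxp3 and at most 1 of Cd8. Classes are ranges of transcript counts, which depth and free RNA affect. The members, lists and subsets were chosen with earlier results of these data known.

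UMIs were summed per class, pool and L-Pha group and tested with edgeR 4.0.16 in R 4.3.3 (TMM scaling, filterByExpr, quasi-likelihood test, pool as a block, Benjamini-Hochberg adjustment over all genes tested, threshold 0.05). The L-Pha fits had 4 sums per class and 1 residual degree of freedom, so their spread came mostly from other genes, and sums within a pool vary less than separate mice would. DESeq2 1.42.0 was an alternative. All intervals, exact Poisson for levels, Clopper-Pearson for shares and conditional for ratios, cover counting error only. The named genes are the 5 members, the 5 genes most alike to each, and at most 4 called genes of each list per comparison by lowest p.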

Additional observations from a re-analysis of the deposited data

Results flagged for a closer look

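In 7 combinations of gene, class and grouping the 2 pools lay on opposite sides of 1, each with a counting interval off 1. The difference between pools was not tested, since each tumour has 1 pool, and no cause was weighed. Genes other than the galectins were not counted in this way.

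For L-Pha-high over L-Pha-low cells, Lgals7 in CD4 cells had a ratio of 0.423 in MC38-Ova and 2.46 in B16-Ova, from 407 and 77 UMIs over all cells of the class. Lgals3 in CD8 cells had 0.798 and 1.92. For Lgals9 the ratio in CD8 cells was 1.25 in MC38-Ova and 0.849 in B16-Ova, and in Treg cells 1.52 and 0.785.

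For the highest over the lowest PD-1 tag quartile, Lgals1 in innate-like cells had 1.41 in MC38-Ova and 0.797 in B16-Ova. For cycling over other cells, Lgals7 in Treg cells had 0.592 and 1.88, and Lgals8 in innate-like cells 0.583 and 2.22, the last of these from 22 cycling B16-Ova cells.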

How the results depend on the processing

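Dropping the pool as a block lowered every count of called galectins that was above 0 except that of CD8 against CD4, to 1 in innate-like against CD4, 0 in Treg against CD8, 0 in innate-like against CD8, 1 in innate-like against Treg, and 0 in L-Pha-high Treg, innate-like and CD4 cells. DESeq2, no filter on low counts, or leaving out the 10% deepest cells gave 2 in Treg against CD4, CD8 against CD4 and Treg against CD8. Leaving out cells with other-cell markers gave 3, 2 and 2 there.

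In L-Pha-high Treg cells the count was 2 with no filter, a hashtag ratio of 6, 1000 genes, Cd3e asked of every class or terciles, and 0 within RNA deciles. In innate-like cells it was 2 with DESeq2 size factors, no filter, a hashtag ratio of 6 or terciles, and 0 with the DESeq2 test, without other-cell markers or per 1000 RNA UMIs. In CD4 cells it was 2 with Cd3e asked, and 0 with a hashtag ratio of 6, without other-cell markers, without the deepest cells, with terciles, within RNA deciles or per 1000 RNA UMIs.

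Signs that turned round, as log2 differences of L-Pha-high over L-Pha-low cells, were mostly those of L-Pha per 1000 RNA UMIs: Lgals1 -0.50 in Treg, -0.051 in CD8, -0.18 in innate-like and -0.49 in CD4 cells, Lgals3 -0.47 and Lgals9 -0.016 in Treg, Lgals9 0.21 and Lgals8 0.13 in CD8, and Lgals9 -0.27 and Lgals8 0.28 in CD4 cells. Within RNA deciles Lgals9 was 0.22 in CD8 and Lgals8 0.14 in CD4 cells. Without the deepest cells Lgals9 was 0.12 in CD8 and Lgals8 0.065 in CD4 cells, and between classes Lgals9 was 0.041 in CD8 over CD4 and Lgals8 -0.00021 in innate-like over CD4. Without other-cell markers Lgals3 was -0.23 and Lgals7 0.027 in Treg cells, where Lgals7 was 0.25 with a hashtag ratio of 6. Lgals3 was -0.15 in CD8 cells without the block, and 0.019 in CD4 cells with terciles. The cause was not tested.

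Pairs of class and gene with a common direction fell to 3 for PD-1 without other-cell markers or without the deepest cells, and to 2 for cycling without the deepest cells. Counts of tumour ratios off 1 did not move by over 1.5 times. Leaving out 1 pool gave values with no test. Low counts limit Lgals7, with 4 UMIs in B16-Ova innate-like cells.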
